A study of Homo sapiens with 12 samples.

Results

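Genes of prostaglandin and leukotriene synthesis were examined in MDA-MB-231-ERβ cells, a triple negative breast cancer (TNBC) line that makes full length ERβ when doxycycline (dox) is added. The 7 genes were chosen by name, with earlier results of these data known. ALOX5AP was among the genes whose repression by E2 the study had reported. No measured value was used as a rule for the choice, and all 7 were found among the 12451 gene entries of the count table. They encode the phospholipase that frees arachidonic acid (PLA2G4A), the inducible cyclooxygenase (PTGS2), the prostaglandin E2 (PGE2) synthases (PTGES, PTGES2, PTGES3), the 5-lipoxygenase activating protein (ALOX5AP) and the hydrolase that makes leukotriene B4 (LTA4H). Cells of all 4 groups carried the ERβ construct and were grown in charcoal-stripped serum, and each group differed in treatment. Vehicle or E2 (1 nM) was present for 5 days, and TNFα (20 ng/ml) was added to the TNFα and E2+ TNFα groups for the last 3 h. Dox is named for the vehicle, E2 and TNFα groups in the labels and for every group in the study's methods. Each group had 3 libraries, from dishes of 1 cell line plated in triplicate, so p-values measure the spread between these dishes. No group without ERβ was analysed here, so an E2 effect cannot be assigned to ERβ from these libraries alone.

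Prostanoids and leukotrienes are short-lived lipid signals made from arachidonic acid. Cytosolic phospholipase A2 releases the acid from membranes, cyclooxygenases turn it into PGH2, and terminal synthases turn PGH2 into each prostaglandin. PGE2 promotes inflammation, blood vessel growth and migration in many carcinomas, and PTGS2 and PTGES are known as genes induced together by inflammatory cytokines through NFκB. In the other branch, 5-lipoxygenase and its partner ALOX5AP make leukotriene A4, which LTA4H converts to leukotriene B4, chiefly in leukocytes.

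Library totals ranged from 7.65 to 39.9 M reads, and the E2 libraries were the shallowest (7.65 to 15.8 M). Levels are given in CPM (with TMM-scaled library sizes), or in RPKM (also per kilobase of exon) where genes are compared with each other. Tests covered 11303 genes, those that reached an RPKM of 1 in 3 or more libraries. This filter kept 6 of the 7 members and left out PLA2G4A. A gene is said to have risen or fallen at an adjusted p of at most 0.1 (edgeR's quasi-likelihood F test with Benjamini-Hochberg adjustment over all genes tested) and to be significantly regulated where its log2 fold change was also at least 1.5 in size with a p under 0.05. The line's markers were present, with VIM at 1040 to 1665 CPM and EGFR at 58.0 to 282 CPM. ERBB2 was at 85.6 to 123 CPM, ESR1 and PGR were not analysed here, and the receptor gene ESR2 was at 228 to 507 CPM. Of 10 leukocyte markers fixed as a check on ALOX5AP and LTA4H, 3 were in the table. CD14 (0.555 to 1.89 CPM), CSF1R (1.11 to 3.06 CPM) and LYZ (0.0437 to 2.90 CPM) were low. Their ranges overlapped with that of ALOX5AP (0.993 to 9.24 CPM) and lay below that of LTA4H (19.4 to 80.5 CPM). The 7 others, PTPRC among them, were not analysed here.

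The 3 vehicle libraries stood apart from the other 9. Libraries did not overlap with vehicle for 80.9% (E2), 86.6% (TNFα) and 81.6% (E2+ TNFα) of all genes tested. Between the other groups this share was 46.8% (E2+ TNFα and TNFα), 15.3% (E2+ TNFα and E2) and 47.1% (E2 and TNFα). Relative to vehicle, the log2 fold change of all genes moved with exon GC content, with a median of -1.92 under TNFα in the quintile of genes with the lowest GC content and 0.81 in that with the highest. The labels name no batch, so a technical batch of vehicle libraries and the vehicle treatment cannot be told apart. PTGS2 (exon GC content 37.0%), PLA2G4A (39.6%) and LTA4H (40.8%) lie in the lowest quintile and PTGES2 (65.4%) in the highest. For the 6 members tested, values relative to vehicle are therefore given beside those after removal, library by library, of the trends with GC content and gene length. Levels, shares, PLA2G4A and the genes that are no members carry no such correction. Between groups other than vehicle the medians of the 5 quintiles lay within 0.28 of 0.

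The stretch before the start of PTGS2, PTGES and ALOX5AP is shown because TNFα raised all 3 in cells without E2. With TNFα given to cells already on E2, PTGES and ALOX5AP were lower than with TNFα alone. PTGS2 did not pass that test in the fit reported. The sequences are the 250 bases before the RefSeq start in GRCh38.p14, read 5′ to 3′ on the gene's strand. PTGS2 lies at chr1:186680424-186680673 (minus strand), PTGES at chr9:129753043-129753292 (minus strand) and ALOX5AP at chr13:30713235-30713484 (plus strand). Capitals mark matches to the motifs searched on both strands, which were settled after the sequences had been looked at.
PTGS2: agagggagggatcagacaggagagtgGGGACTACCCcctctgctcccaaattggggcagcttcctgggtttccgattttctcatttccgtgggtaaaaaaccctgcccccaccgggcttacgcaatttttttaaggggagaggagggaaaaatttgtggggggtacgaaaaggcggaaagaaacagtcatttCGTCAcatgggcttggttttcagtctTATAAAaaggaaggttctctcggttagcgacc
PTGES: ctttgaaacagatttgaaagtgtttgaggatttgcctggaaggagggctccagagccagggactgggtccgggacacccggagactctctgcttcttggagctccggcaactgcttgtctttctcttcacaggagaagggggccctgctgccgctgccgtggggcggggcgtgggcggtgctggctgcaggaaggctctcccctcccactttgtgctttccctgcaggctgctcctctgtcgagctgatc
ALOX5AP: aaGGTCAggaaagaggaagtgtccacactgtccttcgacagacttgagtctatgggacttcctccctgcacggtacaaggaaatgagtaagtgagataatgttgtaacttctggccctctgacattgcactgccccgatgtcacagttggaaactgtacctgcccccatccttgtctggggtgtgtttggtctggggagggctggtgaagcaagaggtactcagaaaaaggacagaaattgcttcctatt
The capitals in PTGS2 are, from the 5′ end, a κB-like match (GGGA, any base, T, any 2 bases, CC, at -224 to -215 from the start), the core of a cAMP response element (CGTCA, -58 to -54) and a TATA match (TATAAA, -32 to -27). These letters occur in 4.46%, 21.2% and 10.7% of 35116 RefSeq promoter windows of the same length. ALOX5AP holds 1 arm of an estrogen response element (GGTCA, -248 to -244), as do 32.6% of the windows. PTGES holds none of the motifs searched, which also included the AP-1 motif TGANTCA (6.57% of windows) and the full estrogen response element, GGTCA and TGACC 3 bases apart (0.0399%). No motifs other than those named here were searched, so a stretch without capitals may hold elements that are not marked. A match is a run of letters and not a bound site. The study's chromatin immunoprecipitation PCR for ALOX5AP has its forward primer in the stretch shown, and its reverse primer is not in it. With E2 the study reported more binding of ERβ, the NFκB subunit p65 and EZH2 at that site. The histone mark H3K27me3 was also reported to increase there. The deposited PTGES model begins at 129777327, upstream of the start used here, and other starts were not searched.

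Per length of exon, PTGES3 and PTGES2 were the most abundant members, with means over the 12 libraries of 51.1 and 53.2 RPKM. PTGS2 (17.1 RPKM) and LTA4H (7.57 RPKM) followed, then PTGES (3.78 RPKM) and ALOX5AP (1.18 RPKM), and PLA2G4A was lowest at 0.191 RPKM. PTGES2 and PTGES3 exchanged places between vehicle and the other groups. LTA4H was above PTGS2 in vehicle (14.0 and 9.09 RPKM) and below it in the other groups, and PTGES was above LTA4H in TNFα, where LTA4H averaged 6.93 RPKM, and below it elsewhere.

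**Figure D1:**
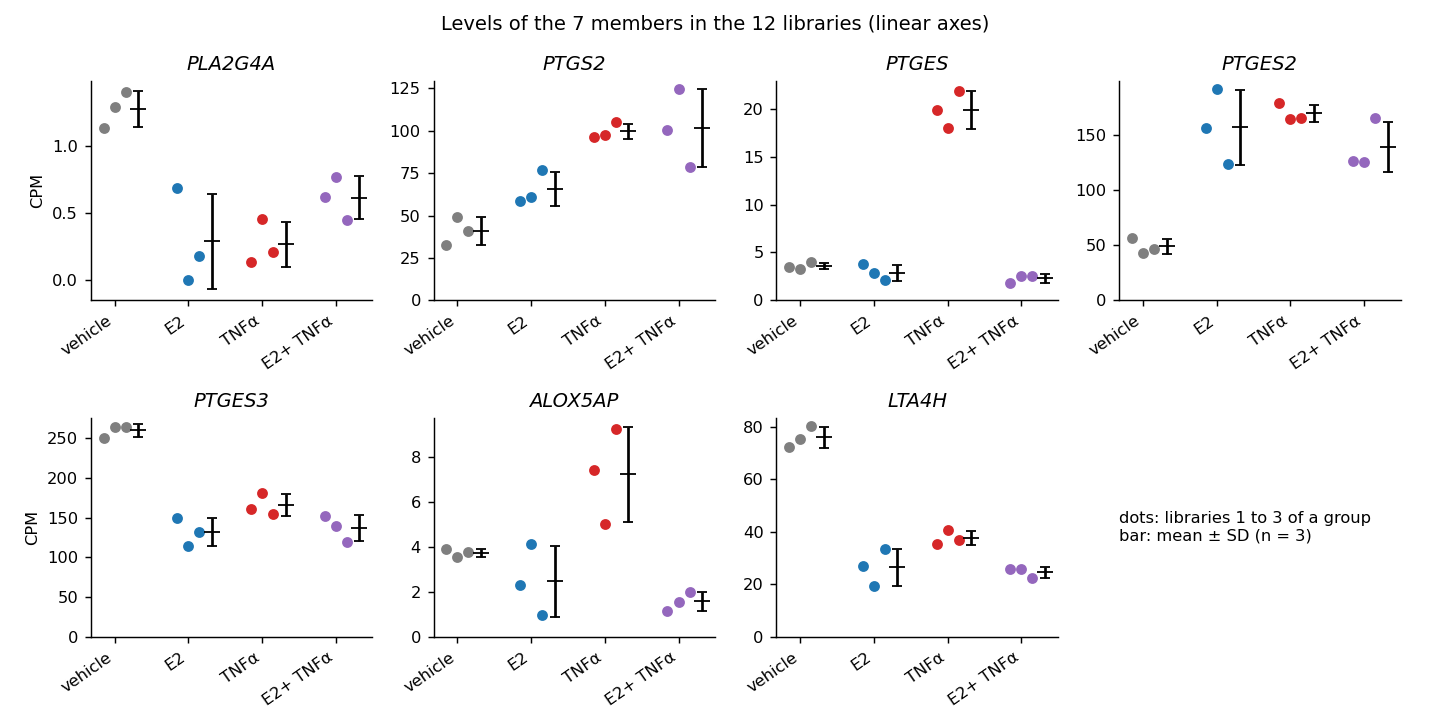
CPM of each member (vertical axes, linear) in the 4 groups, with a dot per library and the mean ± SD of 3 libraries beside the dots. PTGES and ALOX5AP are high in the 3 TNFα libraries and low in the 3 E2+ TNFα libraries, whereas PTGS2 overlaps between these groups.

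PLA2G4A (chromosome 1, 186828900 to 186988981 of hg38), the cytosolic phospholipase A2, lies 148.5 kb from PTGS2. It was near the limit of detection and was highest in vehicle. Its raw counts were 47, 55 and 64 in vehicle, 10, 0 and 2 in E2, 4, 14 and 4 in TNFα and 10, 22 and 15 in E2+ TNFα. The 3 vehicle libraries did not overlap with any other, whereas E2, TNFα and E2+ TNFα libraries did. These correspond to 1.27 ± 0.133, 0.288 ± 0.354, 0.265 ± 0.170 and 0.611 ± 0.160 CPM (SD, n = 3) in vehicle, E2, TNFα and E2+ TNFα. The E2 library with a count of 0 allows up to 0.478 CPM (3 counts, counting error only). In a fit with no filter on low genes, its log2 fold change from vehicle was -1.79 (adjusted p = 0.0124 by edgeR) with E2 and -2.19 (adjusted p = 0.00117) with TNFα. E2+ TNFα and TNFα were not separated in that fit (log2 difference 1.14, adjusted p = 0.131). The median of its GC quintile was also lower than in vehicle, at -1.91 with E2 and -1.92 with TNFα, and the part of this in the PLA2G4A difference was not tested.

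PTGS2 (chromosome 1, 186671812 to 186680427), the inducible cyclooxygenase also called COX-2, was higher than vehicle with TNFα and with E2+ TNFα in every fit made, and E2+ TNFα and TNFα were not separated in the fit reported. Its level was 32.9, 49.0 and 40.7 CPM in the vehicle libraries and 58.7, 61.0 and 76.9 CPM in the E2 libraries. With TNFα it was 96.5, 97.3 and 104.9 CPM, and with E2+ TNFα 100.7, 124.8 and 78.9 CPM. The vehicle, E2 and TNFα libraries formed 3 bands that did not overlap, and the E2+ TNFα libraries lay on both sides of the TNFα libraries. TNFα raised PTGS2 2.44-fold over vehicle (log2 fold change 1.28, standard error 0.176, adjusted p = 9.16e-06), and E2 raised it 1.60-fold (0.68, standard error 0.177, adjusted p = 0.00246). Between E2+ TNFα and TNFα the log2 difference was 0.03 (95% confidence interval -0.34 to 0.40, adjusted p = 0.921), an interval that leaves room for a modest change in either direction. Once both trends were taken out the difference was -0.34 (adjusted p = 0.0496), so that PTGS2 passed as lower with E2+ TNFα there.

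The size of the PTGS2 rise over vehicle depended on the handling of base composition. While PTGS2 rose 1.28 (log2) with TNFα, the median gene of its GC quintile was at -1.92. Once the trends with GC content and length were removed, it stood at 3.53 (log2) with TNFα, 2.98 with E2 and 3.18 with E2+ TNFα, all past the threshold of 1.5 that was missed before. Without TMM, scaled by library size alone, the rise with E2 was 0.33 (adjusted p = 0.157). Under E2, TNFα raised PTGS2 by 0.63 (adjusted p = 0.0714), in libraries that did not overlap. That call was lost in 10 of the 18 other fits, with an adjusted p of 0.103 to 0.452. It was lost with the trends removed (0.20, adjusted p = 0.433) and in the fit of the 2 groups alone (0.66, adjusted p = 0.231). A block for replicate number, a factor from housekeeping genes and leaving out the vehicle libraries also lost it. So did leaving out any 1 of E2 replicates 1 and 2 or E2+ TNFα replicates 1 and 2, where the adjusted p was 0.14 to 0.292. E2 libraries had less PTGS2 than TNFα libraries (log2 difference -0.60, adjusted p = 0.0134), a call lost only with an unwanted factor estimated from 20 housekeeping genes (-0.26, adjusted p = 0.252). RefSeq has an antisense gene beside PTGS2 and another beside PTGES2, and the strand setting of the counting is not given in the sources used here, so reads of those genes cannot be told apart.

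PTGES (chromosome 9, 129738336 to 129777327), the inducible microsomal PGE2 synthase that acts downstream of PTGS2, rose with TNFα in the absence of E2 and was not above vehicle in either group with E2. The levels were 3.52, 3.26 and 3.95 CPM in vehicle, 3.76, 2.87 and 2.08 CPM in E2, 19.9, 18.0 and 21.9 CPM in TNFα, and 1.79, 2.55 and 2.57 CPM in E2+ TNFα. No library of the other groups reached 4 CPM, far from the lowest TNFα library. TNFα raised PTGES 5.55-fold over vehicle (log2 fold change 2.47, standard error 0.223, adjusted p = 1.84e-07). In E2+ TNFα it was 8.51-fold lower than in TNFα (log2 fold change -3.09, standard error 0.236, adjusted p = 8.50e-08), and it was 6.77-fold lower in E2 than in TNFα (-2.76, standard error 0.245, adjusted p = 4.06e-07). Both comparisons share the TNFα libraries. TNFα added to E2 gave a log2 difference of -0.33 (95% confidence interval -0.87 to 0.21, adjusted p = 0.512), and E2 alone differed from vehicle by -0.29 (-0.81 to 0.23, adjusted p = 0.294).

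The PTGES difference between E2+ TNFα and TNFα varied little with the processing. Over the 19 fits made of that comparison the log2 fold change lay between -3.18 and -2.96, and the adjusted p was at most 2.0e-06. With the vehicle libraries left out of the fit, an alternative chosen after the data had been seen, 2 of the 6 members tested were still significantly regulated, as in the fit of all 12 libraries. The rise over vehicle was 1.78 with the trends removed. E2 alone differed from vehicle by -1.15 (adjusted p = 0.000154) with the trends removed, by -0.64 (adjusted p = 0.0293) with library size only and by -0.57 (adjusted p = 0.0716) without E2 replicate 1, so that only the comparison with vehicle, not that with TNFα, changed its call for PTGES.

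**Figure D2:**
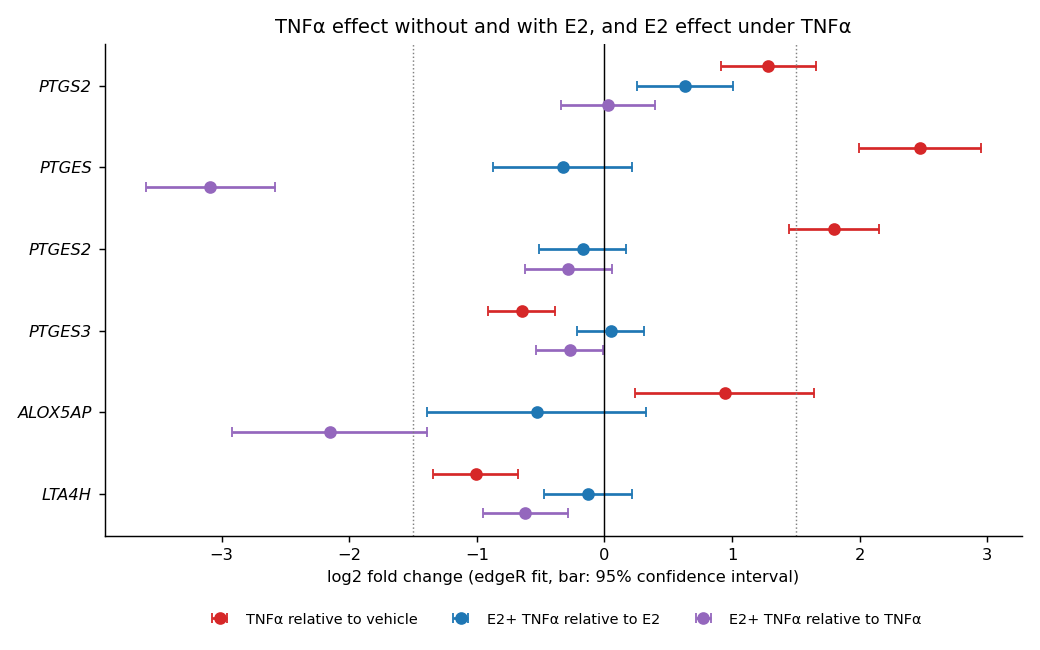
Log2 fold changes (horizontal axis) of the 6 members tested, with 95% confidence intervals from the edgeR fit, for TNFα relative to vehicle (red), E2+ TNFα relative to E2 (blue) and E2+ TNFα relative to TNFα (purple). Dotted lines mark 1.5 in either direction, and for PTGES the red interval lies above the upper line, the purple one below the lower line and the blue one spans 0.

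PTGES2 (chromosome 9, 128120693 to 128128462), the membrane-associated PGE2 synthase that most cells make at all times, was higher in every treated group than in vehicle and did not follow the pattern of PTGES. It stood at 56.9, 43.2 and 46.7 CPM in vehicle, 157.1, 191.8 and 123.6 CPM in E2, 179.0, 165.1 and 165.7 CPM in TNFα, and 127.0, 126.1 and 165.7 CPM in E2+ TNFα. Each of the 9 treated libraries was above each vehicle library, and the 3 treated groups overlapped. Separation from vehicle, in either direction, was common, at 80.9% (E2), 86.6% (TNFα) and 81.6% (E2+ TNFα) of all genes tested. The log2 fold changes from vehicle were 1.68 (E2), 1.80 (TNFα) and 1.51 (E2+ TNFα), with adjusted p at most 9.95e-07. These values fell to 0.66, 0.73 and 0.54 with the trends removed, below the threshold of 1.5 but still past the adjusted p. With the housekeeping factor the rise did not pass in E2 (0.43, adjusted p = 0.468) or E2+ TNFα (0.58, adjusted p = 0.184). The median of its GC quintile was 0.81 with TNFα. E2+ TNFα differed from TNFα by -0.28 (95% confidence interval -0.62 to 0.06, adjusted p = 0.180). That difference passed in 6 of the 18 other fits, at -0.18 (adjusted p = 0.0204) with the trends removed.

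PTGES3 (chromosome 12, 56663341 to 56688408), a cytosolic PGE2 synthase better known as p23, a co-chaperone of HSP90, was lower in the treated groups. Its level was 250.4, 264.3 and 264.3 CPM in vehicle, 150.0, 114.8 and 132.0 CPM in E2, 160.9, 181.1 and 154.7 CPM in TNFα, and 152.2, 138.8 and 119.8 CPM in E2+ TNFα. The vehicle libraries were above the other 9, and E2+ TNFα lay just under TNFα. Relative to vehicle PTGES3 changed by -0.97 (log2, E2), -0.65 (TNFα) and -0.92 (E2+ TNFα), with adjusted p at most 0.000208, against -0.55, -0.18 and -0.56 with the trends removed, which also passed. With the housekeeping factor none of the 3 passed (-0.26, -0.13 and -0.39, adjusted p = 0.641, 0.779 and 0.344). It fell by 0.27 from TNFα to E2+ TNFα (adjusted p = 0.0956), a call that was lost in 9 of the 18 other fits, with an adjusted p of up to 0.248. PTGES3 has sequence of at least 90% identity over at least 200 bases at 6 other loci on 5 chromosomes, up to 1860 bases long, and reads may have been split among them.

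Within the summed RPKM of the 3 PGE2 synthase genes, PTGES held 8.14 ± 0.997% in TNFα (SD, n = 3) and 1.23 ± 0.239% in E2+ TNFα. It held 1.92 ± 0.171% in vehicle and 1.44 ± 0.308% in E2, so even at its highest PTGES was a small part of synthase transcripts. The share of PTGES2 was 20.5% in vehicle and 54.2% to 61.2% in the other groups, and that of PTGES3 77.6% in vehicle and 37.3% to 40.9% in the others. The shift of these 2 relative to vehicle follows the GC trend in direction (PTGES2 65.4% and PTGES3 45.9% GC), and the shares were not corrected for it. With the trends removed the log2 fold changes of the pair with TNFα were 0.73 and -0.18, in place of 1.80 and -0.65. These are shares of transcripts and not of enzyme or activity.

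**Figure D3:**
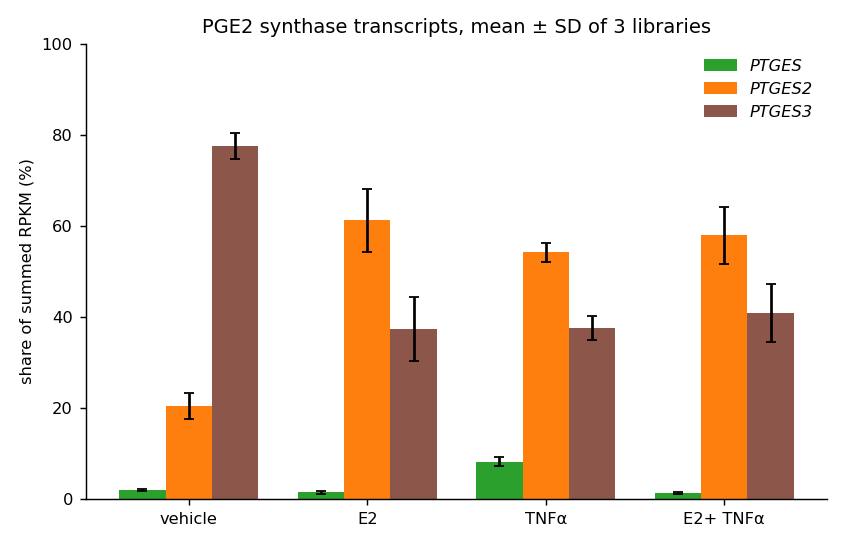
Share (vertical axis, %) of the summed RPKM of the PGE2 synthase genes held by PTGES, PTGES2 and PTGES3 in each group, as the mean ± SD of 3 libraries. PTGES reaches 8.14% with TNFα and stays under 2% on average in the other groups, and PTGES3 holds most of the sum in vehicle.

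ALOX5AP (chromosome 13, 30713478 to 30764428), which presents arachidonic acid to 5-lipoxygenase, rose with TNFα and was lower with E2+ TNFα than with TNFα, as PTGES was, at low levels. It was at 3.91, 3.54 and 3.80 CPM in vehicle, 2.32, 4.14 and 0.993 CPM in E2, 7.43, 5.05 and 9.24 CPM in TNFα, and 1.17, 1.57 and 2.004 CPM in E2+ TNFα. Every TNFα library was above every library of the other groups, and every E2+ TNFα library was below every vehicle and TNFα library. The lowest E2 library had 11 reads of the gene, and the SD was largest relative to the mean in E2 (2.48 ± 1.58 CPM). TNFα raised ALOX5AP 1.92-fold (log2 fold change 0.94, standard error 0.329, adjusted p = 0.0165). In E2+ TNFα it was 4.45-fold lower than in TNFα (-2.15, standard error 0.358, adjusted p = 0.000241) and 2.32-fold lower than in vehicle (-1.21, adjusted p = 0.00584). ALOX5AP reached the RPKM of 1 used as a filter in 7 libraries. No E2+ TNFα library was among them, at 0.367 to 0.628 RPKM and 19 to 67 reads. With the trends removed the values relative to vehicle were 0.92 (adjusted p = 0.0124) with TNFα and -1.29 (adjusted p = 0.00306) with E2+ TNFα.

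Over the 19 fits the ALOX5AP difference between E2+ TNFα and TNFα lay between -2.38 and -1.95, with an adjusted p of at most 0.00205. E2 relative to TNFα was at -1.62 (log2, adjusted p = 0.00321), and this fell under the threshold of 1.5 without E2 replicate 3 (-1.25) or without TNFα replicate 3 (-1.41). E2 alone differed from vehicle by -0.68 (95% confidence interval -1.49 to 0.12, adjusted p = 0.111), and 8 of the 17 other fits put the adjusted p at 0.1 or less, at -1.09 and 0.0165 without E2 replicate 2 and at -0.83 and 0.0601 with the trends removed. With the housekeeping factor, the TNFα effect was -0.69 (adjusted p = 0.609). TNFα added to E2 gave -0.53 (95% confidence interval -1.39 to 0.33, adjusted p = 0.502). In bulk libraries, fewer cells with a transcript and less transcript per cell cannot be told apart. The gene for 5-lipoxygenase itself, ALOX5, was not analysed here. Between TNFα and E2+ TNFα, the mean levels of the 3 leukocyte markers went from 1.47 to 0.707 CPM for CD14 and from 2.56 to 1.67 CPM for CSF1R, the direction of ALOX5AP, and from 0.199 to 2.33 CPM for LYZ, the opposite one. Their part in the ALOX5AP difference was not tested.

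LTA4H (chromosome 12, 96000753 to 96043520), the epoxide hydrolase that makes leukotriene B4, was highest in vehicle and lowest in the groups with E2. It was at 72.4, 75.4 and 80.5 CPM in vehicle, 27.0, 19.4 and 33.5 CPM in E2, 35.6, 40.7 and 37.0 CPM in TNFα, and 25.73, 25.74 and 22.3 CPM in E2+ TNFα. Neither the E2 nor the E2+ TNFα libraries overlapped with the TNFα libraries, and they overlapped with each other. LTA4H fell by 0.62 (log2, standard error 0.157, adjusted p = 0.00623) from TNFα to E2+ TNFα, and all 19 fits gave an adjusted p of at most 0.026. Compared with vehicle the log2 fold changes were -1.502 (E2), -1.01 (TNFα) and -1.63 (E2+ TNFα), with adjusted p at most 2.89e-05. The median of its GC quintile was lower still, at -1.91 in E2, and with the trends removed LTA4H was higher than vehicle by 0.30 in E2 (adjusted p = 0.0309) and by 0.67 in TNFα (adjusted p = 5.57e-05) and differed by -0.12 in E2+ TNFα (adjusted p = 0.362). The direction relative to vehicle is thus not fixed by these data.

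**Figure D4:**
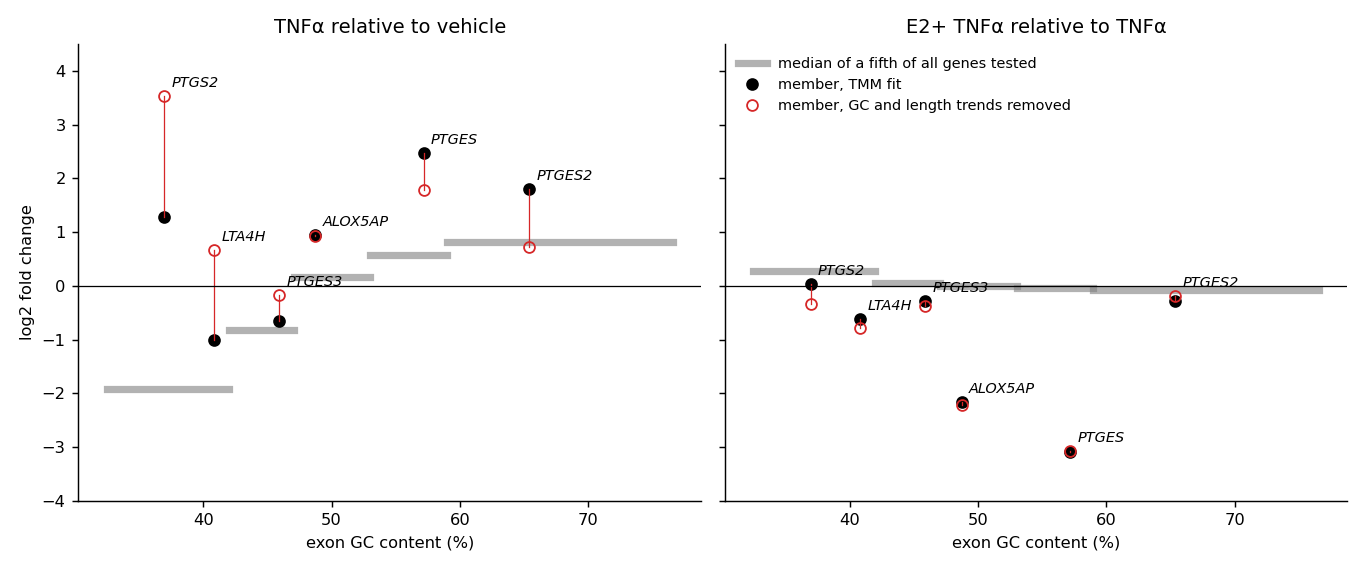
Log2 fold changes (vertical axis) against exon GC content (horizontal axis, %) for TNFα relative to vehicle and for E2+ TNFα relative to TNFα. Filled dots are the 6 members tested, open red dots the same genes with GC and length trends removed, and grey bars the median of each GC quintile of the genes tested. Relative to vehicle the grey bars climb from -1.92 to 0.81 and LTA4H crosses 0 between its dots, whereas in the other comparison the dots of a member lie close together, with the widest gap for PTGS2 (0.03 and -0.34).

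Which members E2 changed in cells given TNFα is the question of E2+ TNFα relative to TNFα. PTGES and ALOX5AP were significantly regulated, both lower, and PTGES3 and LTA4H fell by less, so that 4 of the 6 members tested fell and none rose at the adjusted p. Without the vehicle libraries in the fit, PTGES3 did not pass (adjusted p = 0.230). PTGS2 and PTGES2 did not pass. With the trends removed all 6 members passed as lower, where 60.2% of all genes passed in either direction. In the fit reported, of all genes tested, 21.0% fell, 24.4% rose and 5.56% were significantly regulated, 2.01% in the lower direction. The median log2 fold change of the members was -0.45, against 0.04 for all genes tested. The members' libraries did not overlap between the groups for 4 of 6, against 46.8% of all genes.

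In E2 relative to TNFα, 5 of 6 members were lower and PTGES2 did not pass, where 46.7% of all genes passed and 21.8% were lower. With the housekeeping factor 3 of the 6 were lower, as PTGS2, PTGES3 (-0.13, adjusted p = 0.440) and LTA4H (-0.22, adjusted p = 0.297) lost and PTGES2 (-0.46, adjusted p = 0.0223) gained the call. PTGES3 also lost it without E2 replicate 2 (adjusted p = 0.113) or TNFα replicate 2 (adjusted p = 0.144). PTGES and ALOX5AP were again the significantly regulated ones, where 5.97% of all genes were, 2.48% in the lower direction. When TNFα was added to cells already on E2, PTGS2 alone rose among the members, where 2.65% of all genes rose. That call was lost in 10 of the 18 other fits, as given above. No member was significantly regulated in that comparison by edgeR or DESeq2, at a background of 0.407%. In the fit reported, PTGS2 was also the only member with an unadjusted edgeR p under 0.05. With the trends removed, LTA4H passed as lower (log2 difference -0.41, adjusted p = 0.0498) and PTGS2 did not pass. LTA4H passed in 2 of the 18 other fits, with the trends removed and with the replicate block added to that (adjusted p = 0.0448).

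Against vehicle, calls were common among all genes, so the members' counts say little. The members' libraries did not overlap with vehicle for 4 (E2), 6 (TNFα) and 6 (E2+ TNFα) of the 6 tested. For all genes the shares were 80.9%, 86.6% and 81.6%. TNFα changed 6 of 6 members, with PTGS2, PTGES, PTGES2 and ALOX5AP higher and PTGES3 and LTA4H lower (LTA4H reversed with the trends removed and ALOX5AP with the housekeeping factor), and 81.9% of all genes also passed. PTGES and PTGES2 were significantly regulated, where 26.7% of all genes were, 6.64% in the higher direction. E2 changed 4 of 6 members at a background of 81.8%, and of these PTGES2 (higher) and LTA4H (lower, but reversed with the trends removed) were significantly regulated (30.5% of all genes). E2+ TNFα changed all 6 members tested at a background of 80.6%, with PTGS2 and PTGES2 higher and PTGES, PTGES3, ALOX5AP and LTA4H lower. PTGES2 and LTA4H were significantly regulated there, at a background of 25.1%. Under the housekeeping factor, 2 members passed with E2, 3 with TNFα and 2 with E2+ TNFα, where 23.4%, 24.2% and 27.1% of all genes did.

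Whether the TNFα effect differed with and without E2 was tested by an interaction term, which was past an adjusted p of 0.1 for all 6 members tested and for 76.6% of all genes. PTGES and PTGES2 were significantly regulated in this sense, as were 31.8% of all genes. PTGES had the largest term among the members, at -2.80 (log2, standard error 0.337, adjusted p = 5.19e-06), followed by PTGES2 at -1.97 (standard error 0.229, adjusted p = 3.92e-06). This term uses the vehicle libraries and shares their trend with GC content, with a median of 2.18 in the quintile of lowest GC content. With the trends removed the order changed, as PTGS2 had the largest term at -3.33 (adjusted p = 7.90e-09), against -0.65 before. PTGES was then at -1.94 (adjusted p = 3.21e-05), ALOX5AP at -1.38 (adjusted p = 0.0297), LTA4H at -1.08 (adjusted p = 3.76e-05), PTGES2 at -0.84 (adjusted p = 1.14e-06) and PTGES3 at 0.17 (adjusted p = 0.173). When the housekeeping factor was fitted, the terms of PTGES and PTGS2 passed and the other 4 did not.

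The other genes of the pathway were taken from 5 lists, of which 29 genes were tested. In E2+ TNFα relative to TNFα, 11 of the 29 rose and 8 fell, that is 65.5% against 45.3% of all genes tested. Of these 5 were significantly regulated in the higher direction and 1 in the lower. PLA2G4D, among the 5, passed the filter only through the groups with E2. Levels of the named genes follow by step of the pathway.

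Of genes for arachidonate release and reuptake, 10 of 16 were in the table and tested, and 5 rose and 2 fell (median log2 fold change 0.34). PLA2G4D, a phospholipase A2 of the same family as PLA2G4A, was 15.6-fold higher in E2+ TNFα than in TNFα (log2 fold change 3.96, standard error 0.305). It averaged 1.14 ± 0.152, 9.94 ± 2.88, 0.727 ± 0.277 and 11.8 ± 1.68 CPM in vehicle, E2, TNFα and E2+ TNFα (the order of groups used for the genes that follow), so the groups with and without E2 stood apart. PLA2G4D reached an RPKM of 1 in only 6 libraries and averaged 0.308, 2.68, 0.196 and 3.18 RPKM in these groups. The gene thus passed the filter only through the groups with E2, where it is high, and its TNFα libraries held 8 to 29 reads. ANXA1, annexin A1, which restrains phospholipase A2, averaged 337 ± 21.0, 40.0 ± 39.5, 14.0 ± 7.63 and 48.4 ± 40.7 CPM. Its rise between TNFα and E2+ TNFα (log2 1.78, adjusted p = 0.0421) came with overlapping libraries and was at 0.84 (adjusted p = 0.339) without E2+ TNFα replicate 2, at 1.54 (adjusted p = 0.142) without TNFα replicate 1 and at 1.61 (adjusted p = 0.137) without TNFα replicate 3. ACSL4, which loads arachidonate onto coenzyme A, was at 175 ± 45.3 CPM in vehicle and at 23.0 to 35.5 CPM on average elsewhere. LPCAT3, which returns arachidonate to phospholipids, rose by 0.27 (adjusted p = 0.0874), a call lost in 9 of the 18 other fits with an adjusted p of up to 0.316. MGLL, the lipase that makes arachidonate from an endocannabinoid, rose by 0.41 (adjusted p = 0.0192), with an adjusted p of 0.102 without TNFα replicate 2.

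Of the prostanoid synthases other than the members, 4 of 9 were tested, and 2 rose and 1 fell (median 0.32). AKR1B1, an aldose reductase that can also make PGF2α, was highest in TNFα, as PTGES was, at a far higher level. Unlike PTGES, it rose with E2 alone over vehicle (log2 0.42, adjusted p = 0.00195). In E2+ TNFα it did not pass relative to vehicle (0.13, adjusted p = 0.254). It averaged 272 ± 11.6, 363 ± 32.4, 898 ± 1.75 and 298 ± 22.0 CPM in the order above, and fell 3.01-fold from TNFα to E2+ TNFα (log2 fold change -1.59, standard error 0.108). AKR1C3, a reductase of PGD2 and steroids with close paralogs among which reads may be split, went the other way, at 2.63 ± 0.381, 5.19 ± 0.122, 1.34 ± 0.107 and 4.23 ± 1.15 CPM (log2 fold change 1.65, adjusted p = 0.000158). PRXL2B, a PGF synthase, rose by 0.38 (adjusted p = 0.0489), with an adjusted p of 0.113 to 0.168 in the 4 fits of 18 that lost the call, and CBR1, a carbonyl reductase of PGE2, was at 0.26 (adjusted p = 0.115).

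Of leukotriene and lipoxygenase genes, 6 of 14 were tested, and 3 rose and 2 fell (median 0.14). ALOXE3, an epidermal lipoxygenase, rose 3.50-fold (log2 fold change 1.81, standard error 0.229), from 3.36 ± 0.704 CPM in TNFα to 11.7 ± 1.31 in E2+ TNFα. ALOX12B, its partner in skin, fell by 0.95 (adjusted p = 0.0157), from 7.59 ± 2.21 to 3.89 ± 0.518 CPM. MGST2 and MGST3, microsomal glutathione transferases that can make leukotriene C4, rose by 0.81 and 0.83 (adjusted p = 0.00151 and 0.00162). COTL1, an actin-binding protein that also binds 5-lipoxygenase, fell by 0.81, from 1039 ± 19.3 to 594 ± 71.0 CPM.

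Of genes for prostaglandin export, uptake and breakdown, 4 of 9 were tested, and none rose and 3 fell (median -0.47). ABCC1, which exports leukotriene C4, fell by 0.54, and the prostaglandin reductase genes PTGR1 and PTGR2 fell by 0.40 and 0.63, each a call lost in 3 of the 18 other fits (adjusted p up to 0.149 and 0.132). ABCC4, a prostaglandin exporter, was at 0.03 (adjusted p = 0.950). HPGD, the main enzyme of PGE2 breakdown, was not analysed here.

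Of receptors, 5 of 15 were tested, and 1 rose and none fell (median 0.25). TBXA2R, the thromboxane receptor, rose 5.99-fold (log2 fold change 2.58, standard error 0.243), with 2.88 ± 0.479, 27.9 ± 8.71, 4.86 ± 1.10 and 28.9 ± 5.01 CPM in the same order. PTGFRN, a partner of the PGF2α receptor, was at 0.25 (adjusted p = 0.137). PTGER4, the only PGE2 receptor gene tested, was at 4.79 CPM in TNFα and 5.87 in E2+ TNFα (log2 difference 0.29, 95% confidence interval -0.26 to 0.84).

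**Figure D5:**
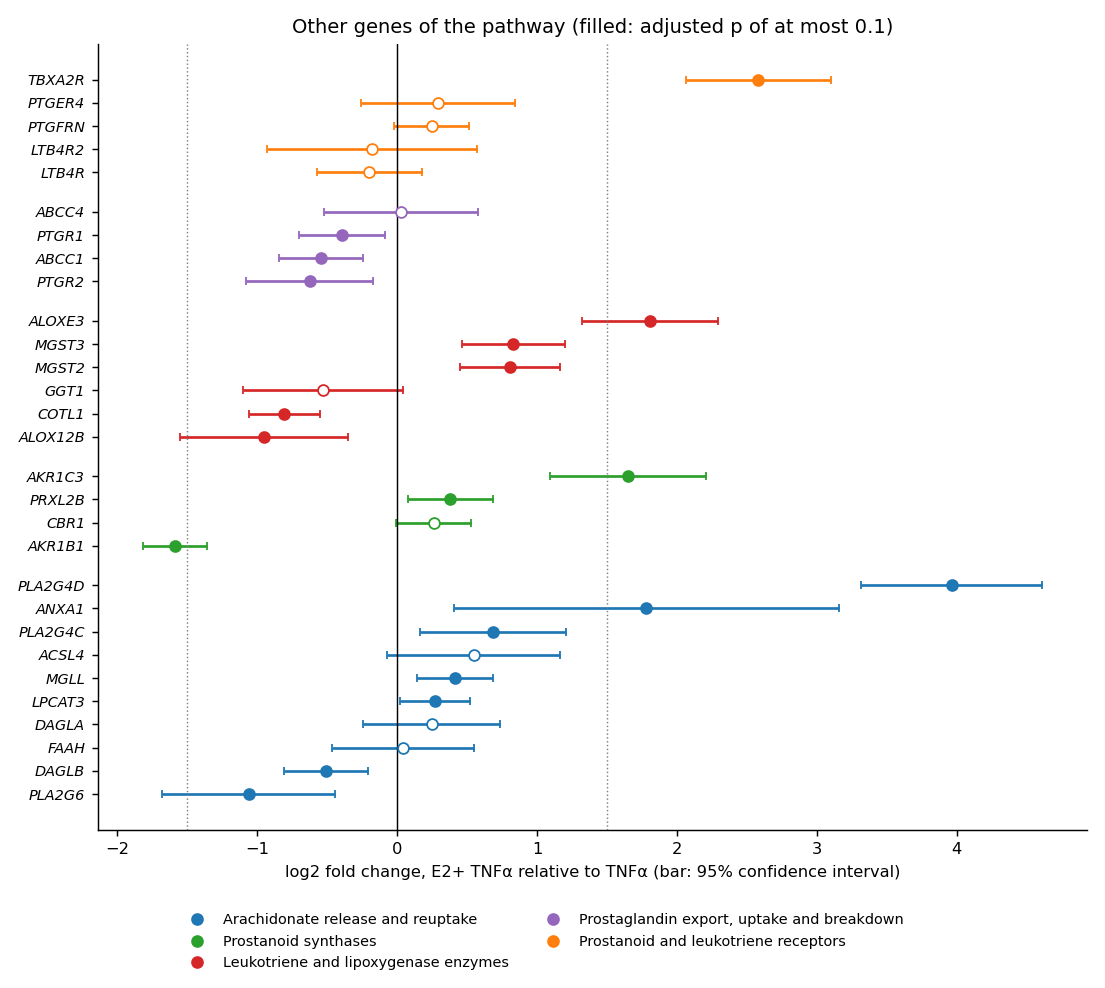
Log2 fold changes of E2+ TNFα relative to TNFα (horizontal axis) with 95% confidence intervals for 29 other genes of the pathway, coloured by list, with filled dots for an adjusted p of at most 0.1 and dotted lines at 1.5 in either direction. PLA2G4D (3.96, past the filter only through the groups with E2) and TBXA2R (2.58) stand highest and AKR1B1 (-1.59) lowest.

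The genes most like a member, by Pearson's r of log2 CPM over the 12 libraries, are given as a description, since libraries of a group share their treatment. For PTGES they were TMCO6 (r = 0.985), SLC37A2 (0.983) and ADM2 (0.980). SLC37A2 was at 14.5, 13.1, 70.7 and 8.67 CPM and ADM2 at 8.08, 5.61, 48.2 and 5.99 CPM in vehicle, E2, TNFα and E2+ TNFα, each highest in TNFα as PTGES was. For ALOX5AP they were UPP1 (0.966), SH2D2A (0.959) and MT1A (0.955), with UPP1 at 196, 137, 297 and 121 CPM in the same order. For PTGS2 they were SNTB1 (0.944), PRKAR2A (0.943) and EFNA1 (0.928), and EFNA1 was at 12.3, 81.6, 527 and 451 CPM in that order as well. For PLA2G4A they were SVIP (0.971), C12orf29 (0.968) and CYB5R4 (0.964), all highest in vehicle.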

How the data were processed

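RNA-seq libraries were prepared with a stranded mRNA kit and sequenced as paired-end reads. The deposited counts are whole reads per gene that the authors assigned with featureCounts (hg38, and TopHat2 2.1.0 per the submitters' processing notes), without normalization. The RUVseq batch correction of the study is not in them. Exact repeats (46) and same-locus aliases (70) were removed. RPKM was computed from counts and exon length. Squared differences between the counts of replicates were 9.49 to 66.0 times those of counting error (chi-square per degree of freedom).

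The 4 group means were fitted to all 12 libraries with edgeR 4.0.16 (TMM, quasi-likelihood F test, R 4.3.3), at the thresholds of the study. Confidence intervals are 95%. The members and lists were chosen with earlier results of these data known. Named genes are the members, listed genes significantly regulated in any pairwise comparison, the 2 of highest RPKM in each list, 3 most alike genes for each of 4 members and, chosen after their values were seen, PTGER4 and LYZ. Copies were sought with blastn 2.17.0. Alternatives were other size factors (DESeq2 1.42.0), filters and tests, a housekeeping factor, trend removal (loess, span 0.3), a replicate block and leaving out libraries. Steps were tested on simulated data.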

Additional observations from a re-analysis of the deposited data

Results flagged for a closer look

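For all 6 members tested, the effect of TNFα with E2 differed from its effect without E2 by the interaction term (edgeR, adjusted p of at most 0.1), as it did for 76.6% of all genes tested. The term was -2.80 (log2) for PTGES, -1.97 for PTGES2, -1.47 for ALOX5AP (adjusted p = 0.0200), -0.65 for PTGS2 (adjusted p = 0.0274), 0.70 for PTGES3 (adjusted p = 0.00250) and 0.88 for LTA4H (adjusted p = 0.00262). Each term contains the vehicle libraries. Once the trends with GC content and length were removed, the terms were -1.94 for PTGES, -0.84 for PTGES2, -1.38 for ALOX5AP, -3.33 for PTGS2, 0.17 for PTGES3 (adjusted p = 0.173) and -1.08 for LTA4H, so LTA4H reversed and PTGES3 did not pass. Whether a batch of vehicle libraries has a part in these terms cannot be told apart from the treatment.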

How the results depend on the processing

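In E2+ TNFα relative to TNFα, 2 members (PTGES and ALOX5AP) were significantly regulated in the fit reported and in each alternative run. In E2 relative to vehicle, 1 member in place of 2 was significantly regulated with size factors of DESeq2, library size only, DESeq2, and the trends removed with or without the replicate block. In E2+ TNFα relative to vehicle it was 1 in place of 2 with library size only, at least 10 counts in every library, and the trends removed with or without the block. The members behind a count also changed. With the trends removed it was PTGS2 in E2 (2.98) and in E2+ TNFα (3.18), and PTGS2 (3.53) and PTGES (1.78) in TNFα, relative to vehicle. With the housekeeping factor the count in E2 relative to vehicle stayed at 2, but PTGES2 was not among them (adjusted p = 0.468). The interaction count was 3 in place of 2 with size factors of DESeq2 and with DESeq2 (ALOX5AP) and 4 with no filter, where PLA2G4A also entered, and with no filter TNFα relative to vehicle had 3 in place of 2. Leaving out 1 library gave counts of 1 to 2 in E2 and in E2+ TNFα relative to vehicle and in E2 relative to TNFα, 2 to 3 for the interaction, 2 to 2 in TNFα relative to vehicle and 0 to 0 in E2+ TNFα relative to E2. The cause was not tested.

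With the GC and length trends removed, LTA4H reversed to 0.30 in E2 and 0.67 in TNFα relative to vehicle and to -1.08 in the interaction (0.28, 0.67 and -1.08 with the replicate block), and PTGS2 reversed to -0.34 and ABCC4 to -0.11 in E2+ TNFα relative to TNFα (-0.35 and -0.11 with the block). PTGES3 went to -0.014 and -0.013 in E2+ TNFα relative to E2. With the housekeeping factor, ALOX5AP reversed to -0.69 in TNFα relative to vehicle, to 0.031 in E2+ TNFα relative to E2 and to 0.72 in the interaction, LTA4H to -0.16 in the interaction, and PTGES2 to 0.14 and PTGES3 to -0.12 in E2+ TNFα relative to E2. Differences near 0 changed sign when a library was left out, with ranges of -0.15 to 0.18 for PTGS2 and -0.17 to 0.24 for ABCC4 in E2+ TNFα relative to TNFα, -0.31 to 0.061 for LTA4H and -0.055 to 0.15 for PTGES3 in E2+ TNFα relative to E2, and -0.32 to 0.016 for PTGES2 in E2 relative to TNFα. Of the other fits of single members, 691 kept direction and the call of significant regulation, 29 lost and 20 gained it.

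Over all genes, counts of significantly regulated genes relative to vehicle fell from 3447, 3016 and 2837 (E2, TNFα, E2+ TNFα) to 1582, 1116 and 1279 with the housekeeping factor and to 1574, 1185 and 1233 with the trends removed (1562, 1192 and 1247 with the block), and the interaction from 3593 to 1143, 1557 and 1554. In E2+ TNFα relative to E2 the 46 genes became 24 with at least 10 counts, 79 with the factor, 30 in the fit of the 2 groups and 84 without E2 replicate 3. Library size only moved the median of all genes from -0.02 to -0.38 (log2) in E2 relative to vehicle and the share of induced among regulated genes there from 32.4% to 17.5%, in E2 relative to TNFα from 58.5% to 47.8% and in the interaction from 70.8% to 83.8%. It kept the order of group means for 6 of 7 members. Replicate numbers did not pair the libraries, as deviations of same-numbered libraries correlated at -0.52 to 0.50. The replicate block kept the counts of 2 members in E2+ TNFα relative to TNFα and 0 in E2+ TNFα relative to E2. Counting error limits PLA2G4A (0 to 64 reads) and ALOX5AP (11 to 226 reads).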
